A study of Mus musculus with 16 samples.

Results

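Transfer RNA pools were compared between 4 hearts of mice given AAV9-DdCBE and 4 hearts of mice given AAV9-GFP, which are 8 of the 16 libraries of the series and were chosen by the treatment named in their titles. The series concerns base editing of a pathogenic mutation in mouse mitochondrial DNA, and all 8 hearts came, per the labels, from the m.5024T mouse model, so the control hearts carried the model too. AAV9 is an adeno-associated virus vector that reaches the heart well, GFP is a fluorescent protein used as the control cargo, and a DdCBE is an editing enzyme, built from a split deaminase and DNA-binding proteins, that makes C-to-T changes in mitochondrial DNA. The titles also carry a label of 2X, 3X, 5X or 10X whose meaning they do not give, and it was not interpreted here. The AAV9-GFP group held mice 19 and 14 (3X) and mice 5 and 6 (5X), the AAV9-DdCBE group held mouse 26 (2X), mouse 25 (5X) and mice 17 and 18 (10X), and values below follow these orders. The sources used here do not give strain, age, sex, vector dose, editing level or the promoter driving either cargo.

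A tRNA carries 1 amino acid to the ribosome and reads codons through its anticodon. Mitochondria make their own proteins with a small set of tRNAs encoded in mitochondrial DNA, most of them a single gene per amino acid, which punctuate a long transcript and are cut out of it. Nuclear tRNAs serve the cytosol and come in families: isodecoders share an anticodon and differ elsewhere in the molecule. The mutation of this mouse model lies in the mitochondrial gene for tRNA-Ala. In mim-tRNAseq, reads run along whole tRNA molecules, so a count was not divided by length, but tRNAs that differ in modification or end structure can still be captured unequally. Each tRNA was therefore compared with itself across hearts. Because the libraries hold only tRNA, fewer molecules of 1 tRNA per cell and fewer of the cells that hold it cannot be told apart, and no tissue marker could be checked.

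The hearts gave 1540287 to 3037178 tRNA counts each. All 22 mitochondrial tRNAs and 48 of 57 nuclear anticodons had enough counts to be tested. The other 9 anticodons held at most 4 counts in any heart and 6 of them held none. For those 6, no counts allow a share of nuclear counts of up to 0.000188% to 0.000339%, depending on the heart (3 counts of its total). Shares were taken within compartment: a mitochondrial tRNA as a percentage of all mitochondrial tRNA counts, and a nuclear anticodon as a percentage of all nuclear tRNA counts.

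Mitochondrial tRNAs made up 43.3%, 42.5%, 37.4% and 38.1% of tRNA counts in the AAV9-GFP hearts and 38.9%, 39.2%, 59.9% and 44.5% in the AAV9-DdCBE hearts. Mouse 17 stood well above the other 7 hearts, which overlapped. The group means were 40.3% ± 3.02 and 45.6% ± 9.87 (SD, n = 4 each), a difference of 5.28 percentage points (exact two-sided permutation test, p = 0.400). Without mouse 17 the difference was 0.517 points.

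Several shares set the smallest libraries apart from the rest, across both treatments. The 3 hearts with the fewest counts were mouse 14 of AAV9-GFP and mice 25 and 18 of AAV9-DdCBE (1540287 to 2070246 counts). The other 5 had 2242721 to 3037178 counts, and this cut was chosen after seeing the data. All 3 hearts lay below the other 5 in 5 of 22 mitochondrial tRNAs, those for Arg, Asn, Glu, Lys and Thr, and in 9 of 48 nuclear anticodons. They all lay above the others in 2 of 22 mitochondrial tRNAs, those for Gly and Met, and in 10 of 48 nuclear anticodons. Between the treatments, 3 of 70 shares did not overlap (4.29%). Asp-GTC, the only tested nuclear tRNA-Asp, was 1.55%, 1.69% and 2.39% of nuclear counts in these 3 hearts and 3.69% to 4.02% in the other 5. The gap in Asp-GTC ran across the treatments, which themselves differed by only -0.16 (log2, SE 0.35). The part of library size in the differences between treatments was not tested, and the main values are therefore also given without these hearts.

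**Figure D1:**
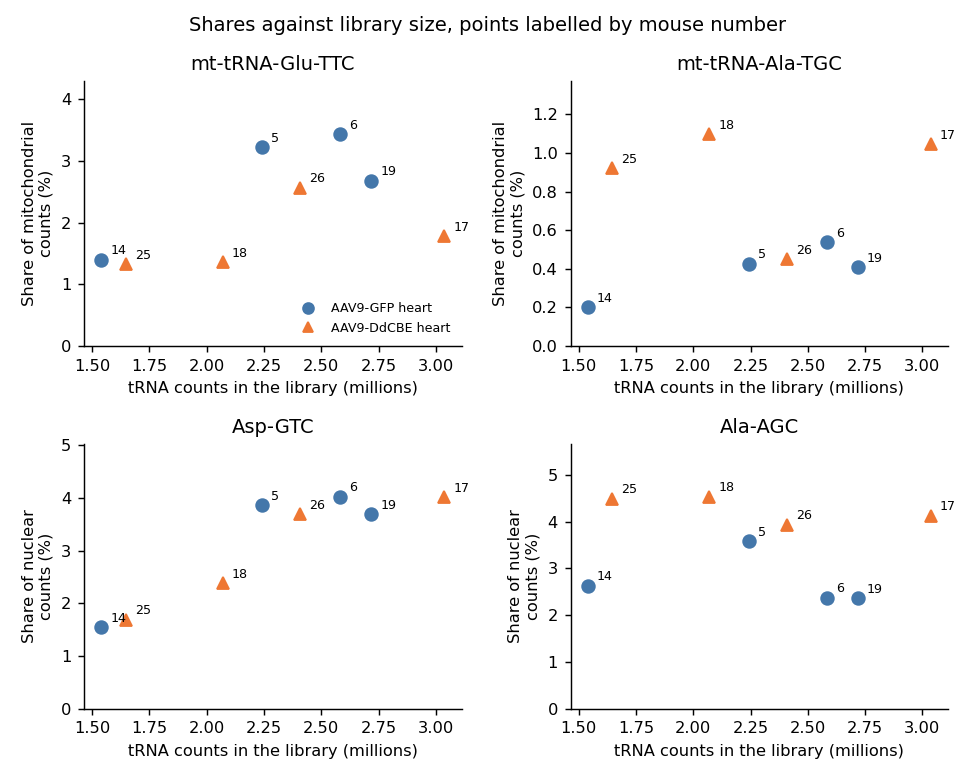
Share of compartment counts (vertical axis, percent) of mt-tRNA-Glu-TTC, mt-tRNA-Ala-TGC, Asp-GTC and Ala-AGC against the tRNA counts of each library (horizontal axis, in units of 1e6 counts), 1 point per heart labelled by mouse number; blue circles are AAV9-GFP and orange triangles AAV9-DdCBE hearts. Asp-GTC is 1.55% to 2.39% in mice 14, 25 and 18, the hearts with the fewest counts, and 3.69% to 4.02% in the other 5, while Ala-AGC separates the treatments.

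No share differed past the threshold: edgeR called 0 of 70 tRNAs and anticodons (0%) at an adjusted p under 0.05. At an unadjusted p under 0.05 there were 5 of 70 (7.14%), namely mt-tRNA-Ala, mt-tRNA-Ile, mt-tRNA-Phe and nuclear Ala-AGC, each higher after AAV9-DdCBE (5.71%), and mt-tRNA-His, which was lower (1.43%). DESeq2 on the same shares called 3, nuclear Ala-AGC, mt-tRNA-Ile and mt-tRNA-Ala, each higher. The groups did not overlap in 3 of 70 (4.29%): mt-tRNA-Phe, Ala-AGC and Gly-GCC.

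The tRNA of the mutated gene, mt-tRNA-Ala-TGC, was among the scarcest of the 22 in these libraries. It made up 0.409%, 0.202%, 0.428% and 0.539% of mitochondrial counts in the AAV9-GFP hearts and 0.450%, 0.921%, 1.05% and 1.10% in the AAV9-DdCBE hearts. The AAV9-DdCBE hearts of mice 25, 17 and 18 were above every control, and mouse 26 lay inside the control range. Counting error was small beside these gaps: the 95% Wilson interval was 0.191% to 0.213% in mouse 14, 0.437% to 0.464% in mouse 26 and 1.08% to 1.12% in mouse 18. The means were 0.394% ± 0.141 and 0.879% ± 0.295 (SD, n = 4 each). On the log2 scale the difference was 1.16 with an SE of 0.34 (edgeR adjusted p = 0.210, DESeq2 adjusted p = 0.0270). The exact two-sided permutation test of the share gave p = 0.0571, where the smallest p that 70 splits allow is 0.0286. The 5X label was the only one carried in both groups: there the share was 0.428% and 0.539% after AAV9-GFP and 0.921% in the single AAV9-DdCBE heart. Without both 10X hearts the log2 difference of mt-tRNA-Ala was 0.80 (edgeR adjusted p = 0.971), and without the 3 hearts with the fewest counts it was 0.71 (edgeR adjusted p = 0.431). The AAV9-DdCBE hearts left were mice 26 and 25 in the first fit and mice 26 and 17 in the second. The second fit also left out mouse 14, the lowest control. Both values depend on which few hearts remained, and the second does not measure an effect of library size.

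**Figure D2:**
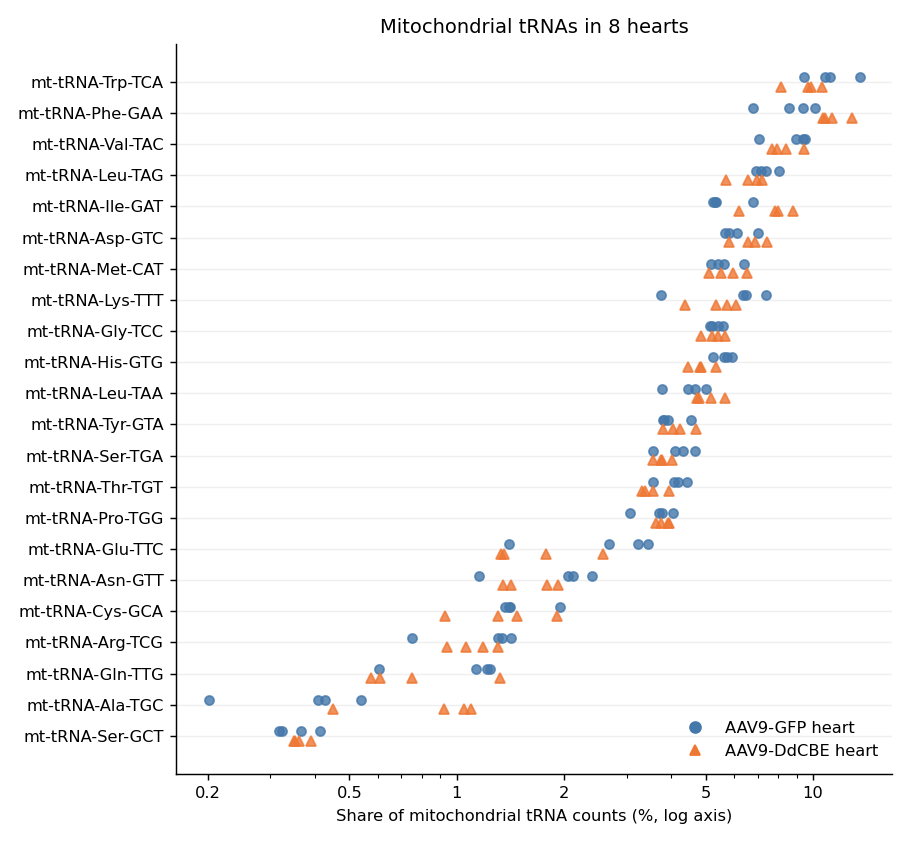
Share of mitochondrial tRNA counts (horizontal log axis, percent) of the 22 mitochondrial tRNAs in 8 hearts, ordered by mean share; blue circles are the 4 AAV9-GFP hearts and orange triangles the 4 AAV9-DdCBE hearts. The groups overlap in 21 of the 22, and mt-tRNA-Phe-GAA does not overlap; mt-tRNA-Ala-TGC spans 0.202% to 1.10%.

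The other members of the gene cluster that holds mt-tRNA-Ala, the tRNAs for Trp, Asn, Cys and Tyr, did not share its higher level. mt-tRNA-Trp, the most abundant of the 22, was 10.8%, 13.5%, 11.1% and 9.41% in AAV9-GFP hearts and 9.85%, 10.6%, 8.12% and 9.67% in AAV9-DdCBE hearts (log2 -0.23, SE 0.13, edgeR adjusted p = 0.528). The lowest and highest values, in mice 17 and 14, were in different groups, but the remaining hearts overlapped. mt-tRNA-Asn was 1.93% ± 0.537 against 1.62% ± 0.279, mt-tRNA-Cys 1.53% ± 0.280 against 1.41% ± 0.411 and mt-tRNA-Tyr 4.02% ± 0.361 against 4.20% ± 0.379 (AAV9-GFP, then AAV9-DdCBE; SD, n = 4 each). All 3 differences were within the spread between hearts (log2 -0.25, -0.12 and 0.063).

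Of the 8 tRNAs encoded on the same strand as mt-tRNA-Ala, 3 were higher and 5 lower, with a median log2 difference of -0.13, beside -0.081 over all 22. Their summed share was 19.4% ± 1.02 of mitochondrial counts after AAV9-GFP and 18.3% ± 0.840 after AAV9-DdCBE (SD, n = 4 each). The member furthest from 0 after Ala was mt-tRNA-Glu, which was 2.68%, 1.40%, 3.22% and 3.44% in the controls and 2.57%, 1.33%, 1.78% and 1.36% in the AAV9-DdCBE hearts (log2 -0.61, SE 0.31, edgeR adjusted p = 0.528). Mouse 14 of AAV9-GFP sat with the 3 lowest AAV9-DdCBE hearts, and mt-tRNA-Glu was one of the tRNAs in which the 3 hearts with the fewest counts lay below the other 5. Among those 5, mouse 17 of AAV9-DdCBE, with the most counts, had the lowest share (1.78%), and the part of library size was not tested. mt-tRNA-Gln showed the same kind of split: it was 1.13%, 0.606%, 1.22% and 1.24% in the controls and 1.32%, 0.751%, 0.607% and 0.575% in the AAV9-DdCBE hearts (log2 -0.36, SE 0.31, edgeR adjusted p = 0.860). Here mouse 26 was the highest of all 8 hearts. The remaining members were mt-tRNA-Ser-TGA (log2 -0.14) and mt-tRNA-Pro (log2 0.063), neither past the threshold.

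The tRNAs for Phe, Val and Leu-TAA flank the genes of the mitochondrial ribosomal RNAs. mt-tRNA-Phe was 9.39%, 10.1%, 8.58% and 6.81% after AAV9-GFP and 10.8%, 10.7%, 12.8% and 11.3% after AAV9-DdCBE. Every AAV9-DdCBE heart was above every control, though mouse 14 (10.1%) came close to mouse 25 (10.7%). The log2 difference was 0.39 (SE 0.13, edgeR adjusted p = 0.253), and the exact two-sided permutation test gave p = 0.0286, the smallest it can give, with an adjusted value of 0.571 over the 70 shares. mt-tRNA-Leu-TAA, which reads the leucine codons that begin with U, was 4.67%, 3.77%, 4.45% and 5.00% against 4.79%, 4.73%, 5.68% and 5.16% (log2 0.19, SE 0.10, edgeR adjusted p = 0.528). Both groups overlapped there, and mt-tRNA-Val was near equal at 8.71% ± 1.13 and 8.35% ± 0.767 (log2 -0.061, SD, n = 4 each). Summed, the 3 tRNAs made up 21.9% ± 1.10 and 24.8% ± 1.18 of mitochondrial counts (SD, n = 4 each), with Phe carrying most of the gap.

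mt-tRNA-Ile, first of the Ile, Gln and Met cluster, was 5.23%, 6.79%, 5.34% and 5.30% in AAV9-GFP hearts and 6.21%, 7.99%, 8.81% and 7.80% in AAV9-DdCBE hearts. The 3 controls other than mouse 14 lay close together, and mouse 14 was above mouse 26, so the groups overlapped by that pair. The log2 difference was 0.44 (SE 0.13, edgeR adjusted p = 0.210; DESeq2 adjusted p = 0.0270). mt-tRNA-Met, which both starts and extends mitochondrial proteins, did not separate at 5.67% ± 0.527 and 5.77% ± 0.614 (log2 0.026, SD, n = 4 each).

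mt-tRNA-His was the only mitochondrial tRNA with a lower share at an unadjusted p under 0.05. It was 5.63%, 5.25%, 5.94% and 5.75% in the controls and 5.35%, 4.83%, 4.46% and 4.86% in the AAV9-DdCBE hearts, where mouse 26 was above mouse 14 and the other 3 were below all controls. The log2 difference was -0.21 (SE 0.07, edgeR adjusted p = 0.259). With its neighbours in the gene order, Ser-GCT and Leu-TAG, it made up 13.4% ± 0.347 and 11.9% ± 0.960 of mitochondrial counts (SD, n = 4 each). mt-tRNA-Ser-GCT, a serine tRNA that lacks the D arm, was the scarcest tRNA of the 22 by mean, at 0.355% ± 0.0444 and 0.364% ± 0.0183 (log2 0.035, SD, n = 4 each). mt-tRNA-Leu-TAG was 7.37% ± 0.471 and 6.62% ± 0.667 (log2 -0.15, SD, n = 4 each).

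The remaining mitochondrial tRNAs showed no difference that passed. mt-tRNA-Thr was 4.19%, 3.55%, 4.07% and 4.43% against 3.95%, 3.38%, 3.56% and 3.31% (log2 -0.19, SE 0.09, edgeR adjusted p = 0.528), again with mouse 14 among the AAV9-DdCBE values. mt-tRNA-Lys (log2 -0.15) and mt-tRNA-Arg (log2 -0.10) had SEs of 0.20 each and were among the tRNAs that were lower in each of the 3 hearts with the fewest counts than in the other 5. mt-tRNA-Asp was at 0.11 and mt-tRNA-Gly at -0.013.

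Directions among the mitochondrial tRNAs depended on the denominator. With TMM factors over all 70 tRNAs and anticodons in place of compartment totals, the median log2 difference of the 22 went from -0.081 to 0.29, a shift of 0.37, and 20 of the 22 were above 0 in place of 9. mt-tRNA-His changed sign there (log2 0.13, edgeR adjusted p = 0.934), while mt-tRNA-Ala kept its sign, with a log2 difference of 1.61 (edgeR adjusted p = 0.407). Under that scaling the medians of the same-strand list (0.18) and of the other-strand list (0.32) were both above 0. Differences between single mitochondrial tRNAs are therefore relative to the rest of their compartment. With the TMM factors the denominator holds both compartments, so the mitochondrial share of all counts enters the shift. That share was 59.9% in mouse 17 and 37.4% to 44.5% in the other hearts. This scaling of the 70 was not repeated without mouse 17, so the shift is not shown to be a trait of the whole group.

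**Figure D3:**
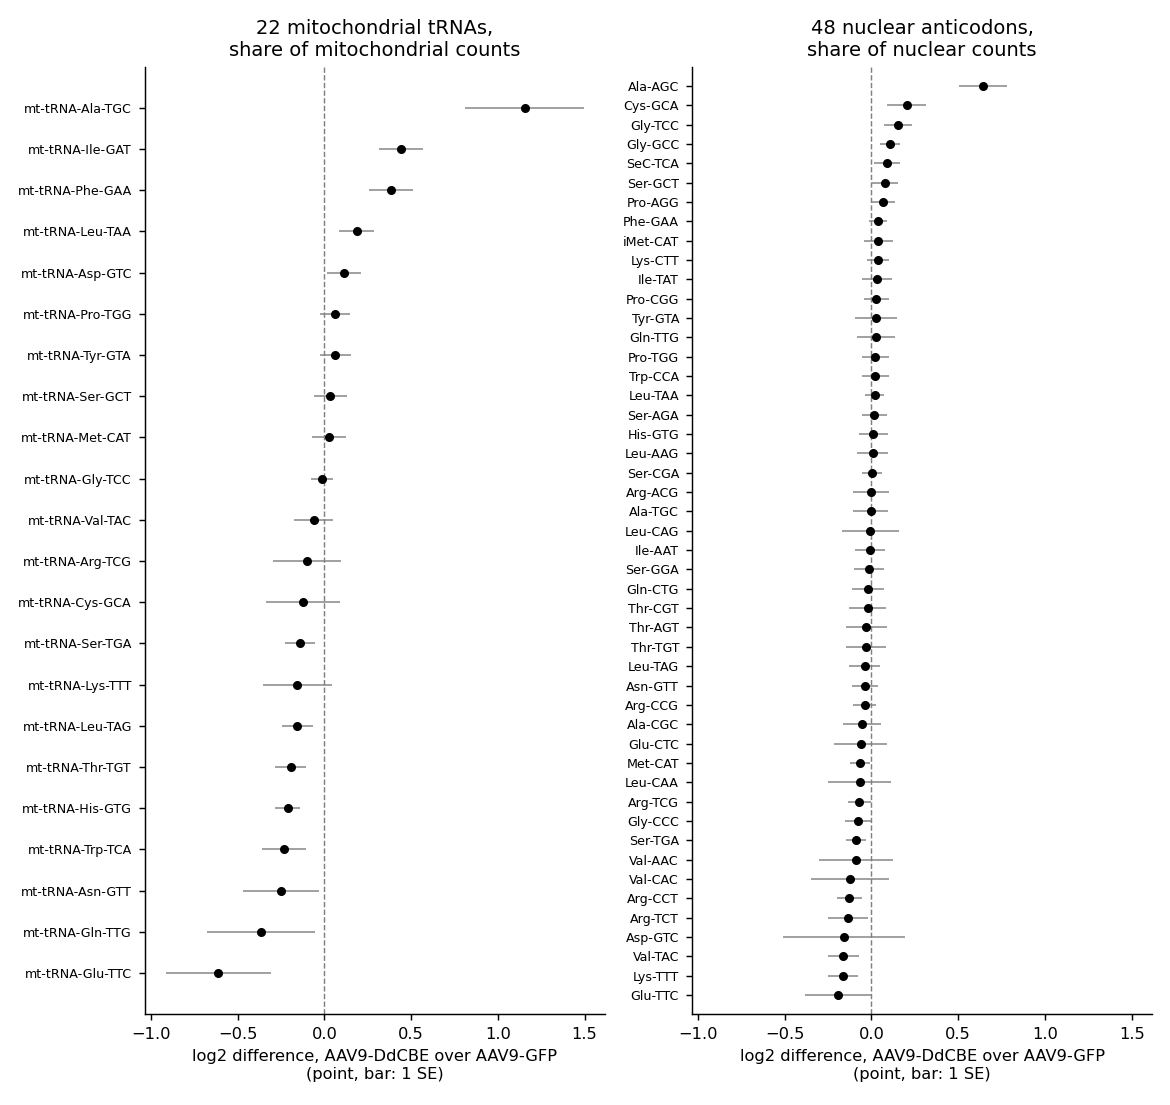
Log2 difference of each share, AAV9-DdCBE over AAV9-GFP, from edgeR (point) with 1 SE on either side (bar), n = 4 hearts each; left, the 22 mitochondrial tRNAs within mitochondrial counts, right, the 48 nuclear anticodons within nuclear counts. mt-tRNA-Ala-TGC (1.16) and mt-tRNA-Glu-TTC (-0.61) are the ends on the left, Ala-AGC (0.64) and Glu-TTC (-0.19) on the right.

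Among the nuclear anticodons, Ala-AGC stood apart from the other 47. The 48 log2 differences had a median of -0.0070, with 21 above 0 and 27 below, and apart from Ala-AGC at 0.64 they lay between -0.19 and 0.20. Ala-AGC tRNAs, whose first anticodon base is edited to inosine in the mature molecule, read several of the alanine codons in the cytosol. They made up 2.36%, 2.63%, 3.58% and 2.37% of nuclear counts in AAV9-GFP hearts and 3.93%, 4.49%, 4.13% and 4.53% in AAV9-DdCBE hearts. The groups did not overlap, and mouse 5 was the control nearest to the AAV9-DdCBE hearts. The means were 2.74% ± 0.577 and 4.27% ± 0.288 (SD, n = 4 each), with an SE of 0.14 on the log2 difference and an edgeR adjusted p of 0.0912. DESeq2 gave an adjusted p of 9.62e-04, and without mouse 5 edgeR gave a log2 difference of 0.80 with an adjusted p of 0.00116. Without the 3 hearts with the fewest counts it was 0.54 (edgeR adjusted p = 0.392), and without both 10X hearts 0.62 (edgeR adjusted p = 0.971). Only mice 26 and 17, and then mice 26 and 25, remained of AAV9-DdCBE in these fits.

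The Ala-AGC total was made up differently from heart to heart. Of its 17 listed transcripts, 8 had enough counts to be tested. The leading one, tRNA-Ala-AGC-4, was 0.890%, 0.958%, 2.32% and 0.904% of nuclear counts in the controls and 2.37%, 2.67%, 1.56% and 2.09% in the AAV9-DdCBE hearts. Mouse 5 of AAV9-GFP thus lay within the AAV9-DdCBE range, while the other 3 controls were below it. All other Ala-AGC transcripts together were 1.47%, 1.67%, 1.26% and 1.47% in the controls and 1.57%, 1.82%, 2.57% and 2.45% in the AAV9-DdCBE hearts, with the 2 highest values in the 10X hearts of mice 17 and 18. Within the anticodon, tRNA-Ala-AGC-4 held 37.7%, 36.4%, 64.8% and 38.1% of Ala-AGC counts in the controls and 60.2%, 59.5%, 37.8% and 46.0% in the AAV9-DdCBE hearts, so its share of the family overlapped fully (log2 0.20, SE 0.23, edgeR adjusted p = 0.502). Set against the control means, in mice 26 and 25 the higher total came mainly with tRNA-Ala-AGC-4, and in mouse 17 mainly with the others. Reads of near-identical isodecoders may be split between transcripts by the counting, which leaves the parts less certain than the total.

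**Figure D4:**
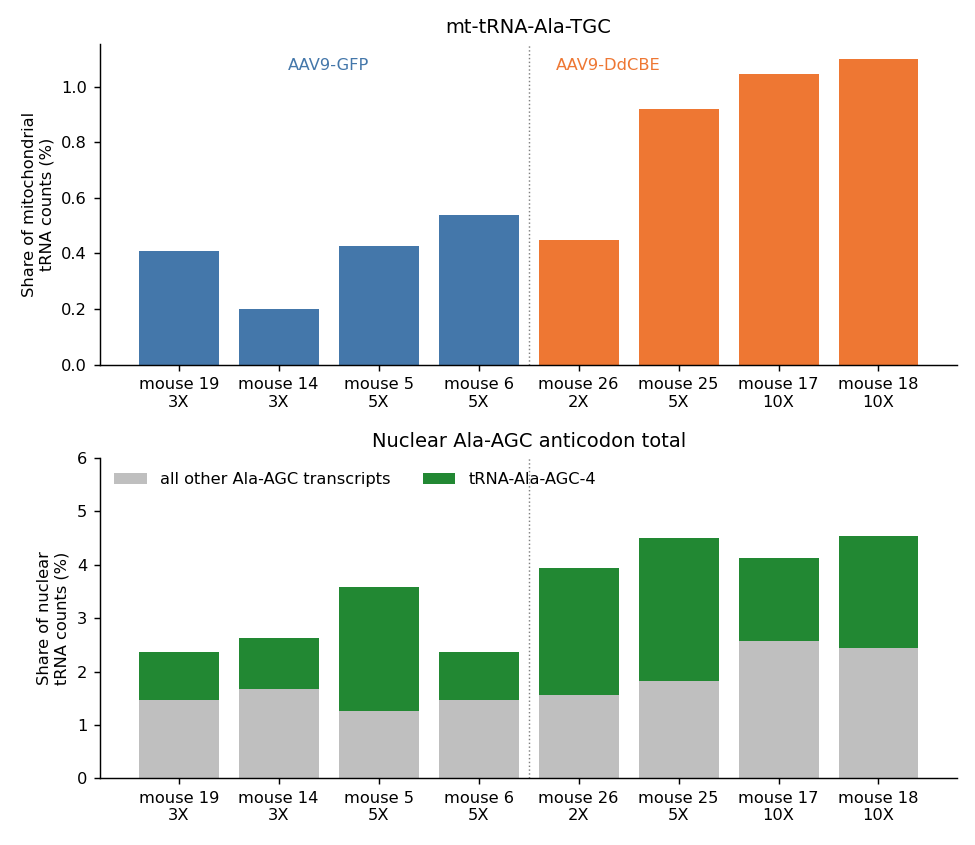
Alanine tRNAs by heart, AAV9-GFP hearts left of the dotted line and AAV9-DdCBE hearts right of it, with mouse number and X label under each bar; top, mt-tRNA-Ala-TGC as percent of mitochondrial tRNA counts, bottom, the nuclear Ala-AGC total as percent of nuclear tRNA counts, split into tRNA-Ala-AGC-4 (green) and all other Ala-AGC transcripts (grey). The Ala-AGC total is 2.36% to 3.58% in controls and 3.93% to 4.53% after AAV9-DdCBE, and tRNA-Ala-AGC-4 in mouse 5 (2.32%) lies within the AAV9-DdCBE values.

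The other nuclear alanine anticodons did not follow Ala-AGC. Ala-CGC was 1.60% ± 0.0762 and 1.54% ± 0.234 of nuclear counts (log2 -0.054, SE 0.11), and Ala-TGC was 1.76% ± 0.111 and 1.76% ± 0.233 (log2 -0.0035, SE 0.10; SD, n = 4 each). Thus 1 of 3 tested nuclear alanine anticodons was clear of overlap, beside 2 of all 48 nuclear anticodons and 3 of all 70 shares (4.29%). Among the 8 tested anticodons that begin with A, as Ala-AGC does, 4 were higher and 4 lower with a median of 0.0021, and their summed share was 19.9% ± 1.20 and 21.4% ± 1.02 of nuclear counts (SD, n = 4 each). Anticodons beginning with C had 5 higher of 16 and a median of -0.031, those with G 6 of 9 and 0.027, and those with T 6 of 15 and -0.030. The 11 tRNAs with a long variable arm, for Leu, Ser and selenocysteine, had 6 higher and a median of 0.0036, with summed shares of 12.3% ± 0.321 and 12.4% ± 0.495 (SD, n = 4 each). The median over all 70 was -0.014, so none of these lists lay far from it.

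Glycine tRNAs gave the only other nuclear anticodon without overlap. Gly-GCC was 3.24%, 2.88%, 3.03% and 3.12% after AAV9-GFP and 3.24%, 3.34%, 3.24% and 3.40% after AAV9-DdCBE, where the highest control and the lowest AAV9-DdCBE values are equal at the digits given. The log2 difference was 0.11 (SE 0.06, edgeR adjusted p = 0.528). Gly-TCC was 1.52%, 1.63%, 1.63% and 1.53% against 1.57%, 1.65%, 1.85% and 1.93%, with only the 10X hearts well above the controls (log2 0.15, SE 0.08, edgeR adjusted p = 0.528). Gly-CCC lay on the other side of 0 (log2 -0.077). Cys-GCA, the tested tRNA for cysteine, was 2.03%, 2.65%, 2.59% and 2.08% against 2.34%, 2.69%, 2.83% and 2.91%, with overlap (log2 0.20, SE 0.11, edgeR adjusted p = 0.528). SeC-TCA, which inserts selenocysteine at recoded stop codons, was 0.211% ± 0.00291 and 0.224% ± 0.0214 of nuclear counts (SD, n = 4 each), with mouse 25 the highest at 0.250%. Ser-GCT (0.078), Pro-AGG (0.066) and Phe-GAA (0.039) completed the higher shares with the smallest p on the log2 scale.

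On the lower side, Lys-TTT, the most abundant nuclear anticodon in these libraries, was 7.94%, 8.66%, 7.69% and 7.90% after AAV9-GFP and 7.55%, 7.79%, 6.19% and 7.21% after AAV9-DdCBE. Mouse 17 was the lowest and mouse 25 lay within the controls (log2 -0.16, SE 0.09, edgeR adjusted p = 0.528). Val-TAC was 0.991% ± 0.0530 and 0.886% ± 0.0942, Arg-CCT 1.10% ± 0.0693 and 1.01% ± 0.0645, and Ser-TGA 0.908% ± 0.0286 and 0.854% ± 0.0291 (SD, n = 4 each). Each of these overlapped between treatments, and Arg-CCT was one of the anticodons that were lower in each of the 3 hearts with the fewest counts than in the other 5. Arg-TCT (-0.13), Met-CAT (-0.064), Arg-TCG (-0.070) and Gly-CCC (-0.077) had log2 differences within about 1 SE or little more. The other abundant anticodons barely differed by mean: Ile-AAT was 5.02% ± 0.369 and 4.99% ± 0.427, Asn-GTT 4.01% ± 0.162 and 3.91% ± 0.333, Glu-CTC 3.85% ± 0.745 and 3.69% ± 0.453, and Tyr-GTA 3.51% ± 0.205 and 3.58% ± 0.658 (SD, n = 4 each). Mouse 17 was the highest of the 8 hearts in Tyr-GTA, at 4.51%.

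Within the anticodons, the mix of isodecoders differed in some AAV9-DdCBE hearts. Each of 151 isodecoders, from 41 anticodons, was taken as a share of its own anticodon. edgeR called 0 of 151 (0%), with 47 at an unadjusted p under 0.05 (31.1%), 42 of them higher (27.8%) and 5 lower (3.31%), while DESeq2 called 48, 43 higher and 5 lower. The groups did not overlap in 15 of 151 (9.93%), 11 higher (7.28%) and 4 lower (2.65%). Mouse 26 bore on these counts: without it edgeR called 33, all higher. Without mouse 5 of AAV9-GFP it called 2, both lower.

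The 5 isodecoders with the smallest p were each rare within their anticodon. In the AAV9-GFP hearts tRNA-Gly-CCC-2 had 18 to 30 counts, tRNA-Cys-GCA-4 26 to 46, tRNA-Asn-GTT-1 15 to 51 and tRNA-Ala-AGC-5 119 to 358. The log2 differences below rest on these low control counts and on how reads of near-identical isodecoders were assigned. tRNA-Ala-AGC-5 was 0.374%, 0.511%, 0.712% and 0.401% of Ala-AGC counts in AAV9-GFP hearts and 0.975%, 1.65%, 11.7% and 8.49% in AAV9-DdCBE hearts (log2 3.51, SE 0.83, edgeR adjusted p = 0.109). tRNA-Gly-CCC-2 was 0.121%, 0.155%, 0.113% and 0.121% of Gly-CCC counts against 0.201%, 0.625%, 9.08% and 5.73% (log2 4.94, SE 1.19). tRNA-Cys-GCA-4 was 0.0894%, 0.111%, 0.0934% and 0.138% of Cys-GCA counts against 0.148%, 0.327%, 9.28% and 3.57% (log2 4.94, SE 1.31). In each, mouse 26 was just above the controls, mouse 25 somewhat higher and the 10X hearts of mice 17 and 18 highest by far. tRNA-Met-CAT-4, an elongator methionine tRNA, was 0.0988%, 0.210%, 0.139% and 0.139% of Met-CAT counts against 0.179%, 0.502%, 6.38% and 3.86% (log2 4.22, SE 1.11), with mouse 26 below mouse 14. tRNA-Asn-GTT-1 was 0.0239%, 0.0439%, 0.0529% and 0.0756% of Asn-GTT counts against 0.0784%, 0.140%, 1.59% and 0.992% (log2 3.83, SE 1.02). All 5 had the same edgeR adjusted p of 0.109. Without both 10X hearts their log2 differences were 1.11 to 1.68 (edgeR adjusted p = 0.657). With the X label as a block they were 1.11 to 2.41, values that rest on the 5X hearts alone, mice 5 and 6 against mouse 25.

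**Figure D5:**
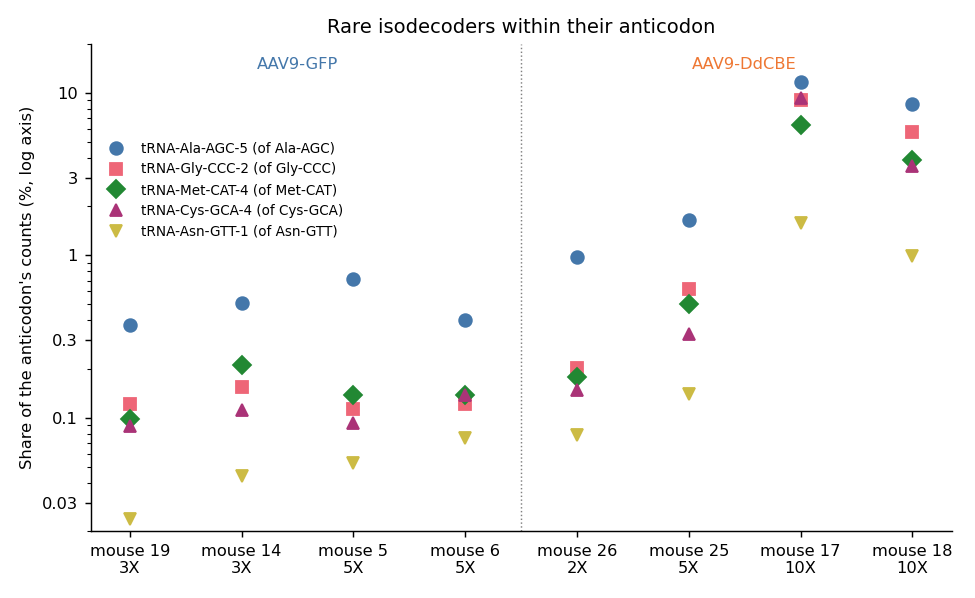
Share of their own anticodon's counts (vertical log axis, percent) of the 5 isodecoders with the smallest p, 1 point per isodecoder and heart, with mouse number and X label under each heart and AAV9-GFP hearts left of the dotted line. The 10X hearts of mice 17 and 18 reach 0.992% to 11.7%, and mouse 26 lies between 0.0784% and 0.975%.

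The extent of the isodecoder differences varied by heart. Of 151 isodecoders, 19 were above all 4 controls in mouse 26, 42 in mouse 25, 80 in mouse 17 and 73 in mouse 18. Below all 4 controls lay 15, 20, 54 and 48 in the same order. A single heart can lie outside the range of 4 controls without any difference between treatments, so the counts of mice 26 and 25 are not counts of changed isodecoders. More than 5-fold over the AAV9-GFP mean lay 0, 0, 27 and 23 isodecoders in the same order, and more than 2-fold 0, 9, 46 and 41. The 10X hearts shared 23 isodecoders above 5-fold, from 14 anticodons, and each had made up at most 1.28% of its anticodon in the AAV9-GFP mean (median 0.234%). Abundant isodecoders could not pass this rule, since a share cannot exceed the whole anticodon, so their rarity was partly set by the rule. The totals of those 14 anticodons were at log2 differences of -0.16 to 0.64, with 4 above 0. Lys-TTT shows the scale of this: tRNA-Lys-TTT-1 held 99.0%, 98.5%, 99.2% and 99.0% of Lys-TTT counts in the controls, 98.8% and 98.3% in mice 26 and 25, and 88.6% and 93.1% in mice 17 and 18. Over all 41 anticodons, the most abundant isodecoder of each held 74.2%, 72.9%, 75.0% and 74.9% of their counts in the controls and 74.0%, 73.4%, 67.3% and 69.9% after AAV9-DdCBE. Only the 10X hearts lay outside the control range. No control heart had the label 10X, so label and editor cannot be told apart in these hearts.

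Spread between hearts followed the same line. The SD was larger after AAV9-DdCBE for 124 of 151 isodecoders, but for 10 of 22 mitochondrial tRNAs and 18 of 48 nuclear anticodons. As a percentage of the mean, the median SD of isodecoders was 8.22% after AAV9-GFP and 14.0% after AAV9-DdCBE. It was 12.7% and 10.1% for mitochondrial tRNAs, and 7.45% and 7.90% for nuclear anticodons. Isodecoder shares of an anticodon sum to a fixed total, so the 124 are not independent of each other. As a whole-profile measure, the share of counts that would have to move to turn one heart's profile into another's was 3.93 to 12.2 percentage points for mitochondrial tRNAs between treatments (median 9.88), against 2.47 to 13.6 within AAV9-GFP (median 8.05) and 4.21 to 8.75 within AAV9-DdCBE (median 6.98). For nuclear anticodons the medians were 6.23 between treatments, 6.05 within AAV9-GFP and 5.75 within AAV9-DdCBE. For nuclear transcripts they were 9.05, 6.58 and 7.86 in the same order, so in all 3 profiles the median between treatments was the highest. Mouse 14 set much of the spread among the controls: without it the median within AAV9-GFP, over 3 pairs, was 4.54 for mitochondrial tRNAs, 2.93 for nuclear anticodons and 3.82 for nuclear transcripts, while the medians between treatments were 10.05, 6.04 and 8.84. Without any 1 of the other controls the median within AAV9-GFP was above that between treatments in all 3 profiles. The distances carry no test, since pairs share hearts.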

How the data were processed

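The authors deposited whole-number read counts per tRNA transcript, 1 column per heart, not normalized. Per the labels' protocols, RNA was extracted in mild acid, oxidised and beta-eliminated, and libraries followed mim-tRNAseq; the hearts are separate mice. Per the submitters' processing notes, cutadapt 3.5 was used with build mm39. Not given in the sources used here are the aligner, the counter and how reads shared by near-identical isodecoders were handled. The fibroblast table was not used. Rows named tRX, with 26 to 53 counts per heart, were left out of both compartments.

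Counts of 22 mitochondrial tRNAs and 57 nuclear anticodons (267 transcripts summed) entered 1 quasi-likelihood fit in edgeR 4.0.16 (R 4.3.3) with the log of each heart's compartment total as offset, so that a log2 difference is one of shares. filterByExpr used a minimum count of 10 and a minimum total of 15, and p-values were adjusted by Benjamini-Hochberg over the 70 tested, with a threshold of 0.05. Isodecoders were fitted likewise with the anticodon total as offset. Exact two-sided permutation tests went through all 70 splits of the 8 hearts, and DESeq2 1.42.0 was an alternative. Wilson intervals came from scipy 1.17.1. Only the edgeR fits of shares and of isodecoders were tested on simulated counts. At a 2-fold change they recovered 98.8% of changed shares and 66.1% of changed isodecoders. Each simulated row was drawn on its own, with the same dispersion in both treatments. Shifts shared by many tRNAs of a heart, and the larger isodecoder spread after AAV9-DdCBE, were thus left out. The recovered percentages therefore set no bound on changes missed in these hearts. No 2 hearts of a treatment were copies: in the 12 pairs the chi-square statistic was 194 to 3928 times its degrees of freedom. The 95% Wilson intervals and floors cover counting error only, since reads carry no molecular identifiers in the sources used here; their margin was under 5% of the share in 68 of the 70.

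Named were all mitochondrial tRNAs, up to 8 nuclear anticodons on each side by p, the 5 most abundant, the alanine anticodons and the 5 isodecoders of smallest p. Asp-GTC, tRNA-Ala-AGC-4 and tRNA-Lys-TTT-1 were chosen after their values were seen. Members and lists were chosen with earlier results of these data known. Replicate numbers restart within each X label and do not pair hearts of the treatments.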

Additional observations from a re-analysis of the deposited data

Results flagged for a closer look

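In 3 of 100 groups of 4 hearts tested by Dixon's criterion, 1 heart stood far from the other 3; chance alone gives about 1 in 20. All 3 are mouse 14 of AAV9-GFP, the heart with the fewest counts. mt-tRNA-Arg-TCG was 0.749% of mitochondrial counts there and 1.31% to 1.42% in the other controls. mt-tRNA-Cys-GCA was 1.95% there and 1.37% to 1.41% in the others. mt-tRNA-Ile-GAT was 6.79% there and 5.23% to 5.34% in the others, and without this heart its log2 difference between treatments was 0.54 (edgeR adjusted p = 0.0887) in place of 0.44.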

How the results depend on the processing

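The count of called shares, 0 of 70 in edgeR, was 3 in DESeq2 and 0 to 1 when single hearts were left out (1, Ala-AGC, without mouse 5 of AAV9-GFP). For isodecoders it was 48 in DESeq2 and 0 to 33 when single hearts were left out (33 without mouse 26 of AAV9-DdCBE and 2 without mouse 5). For transcripts over the whole table with TMM scaling, edgeR called 0 of 180 (0%; 35 at an unadjusted p under 0.05, 19.4%), DESeq2 27, and 0 to 31 were called without single hearts (31 without mouse 26, 19 without mouse 25). The cause of these differences between tools and hearts was not tested. The mt-tRNA-Ala difference was 0.71 to 1.61 on the log2 scale over 18 alternatives, 0.94 to 1.37 without single hearts, and passed in 1, DESeq2 (1.16, DESeq2 adjusted p = 0.0270). With the X label as a block it was 0.93, a value that rests on the 5X hearts alone, 2 of AAV9-GFP and 1 of AAV9-DdCBE. The mitochondrial share of all counts differed by 0.517 to 7.53 points without single hearts, with the low end without mouse 17, and by 1.46 points in the 5X hearts alone. mt-tRNA-His reversed with TMM factors over all shares (log2 0.13, edgeR adjusted p = 0.934), where the denominator holds both compartments. mt-tRNA-Ile was 0.37 to 0.54 without single hearts.

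With the replicate number of the titles as a replicate block, the mt-tRNA-Ala difference was 1.17 (edgeR adjusted p = 0.311) and the calls were 0 of 70 shares, 0 of 151 isodecoders and 0 of 180 transcripts; the numbers do not pair the hearts. Leaving out both 10X hearts, or the 3 hearts with the fewest counts, was chosen after seeing the data and gave 0 called shares and 0 called isodecoders in edgeR, with 1 and 7 shares and 7 and 28 isodecoders at an unadjusted p under 0.05. Mice 26 and 25, or mice 26 and 17, were then the only AAV9-DdCBE hearts. The distances between hearts without single hearts were also computed after seeing the data. Depth limits Ser-GGA most, where the margin of the 95% Wilson interval reached 19.6% of the share.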
